A study of Mus musculus with 6 samples.

Results

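The sorting nexins and the retromer core, proteins that sort membrane cargo out of endosomes, were examined in RNA-seq of GFP-expressing cells of the mouse embryo. Members were chosen by name: every listed gene whose symbol is Snx followed by digits only, plus Vps26a, Vps26b, Vps29 and Vps35. This gave 34 of the 51912 genes in the count tables, made up of 30 sorting nexins and the 4 genes of the retromer core. The family was proposed with results of the same comparison known, so the differences of its members are given here as a description, without p-values.

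The cells came from the aorta-gonad-mesonephros (AGM), the embryonic region where the first haematopoietic stem cells form beside the dorsal aorta, of E10.5 MacGreen mouse embryos. Both groups carried the Csf1r-EGFP transgene, in which the promoter of the macrophage growth factor receptor gene Csf1r drives GFP, and both were sorted as GFP+. The 3 libraries of GFP+CD206+ cells and the 3 libraries of GFP+CD206- cells differed in surface staining for CD206, the mannose receptor encoded by Mrc1, which is borne by many tissue macrophages. The Csf1r promoter is active in macrophages and also in other myeloid cells, so the reporter alone does not define 1 cell type. Each library pooled 3 to 5 AGM, dissociated with collagenase for 45 min at 37 °C, and the 3 libraries of a group came from 3 independent litters. Libraries of both groups with the same AGM number were read as 1 litter, numbered 1 to 3 below.

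Retromer is a trimer of VPS35, VPS29 and either VPS26A or VPS26B that sits on the cytosolic face of endosomes and returns receptors to the plasma membrane or the trans-Golgi network instead of letting them reach the lysosome. Sorting nexins share a phox homology (PX) domain, which in many of them binds phosphatidylinositol 3-phosphate on early endosomes. Some also carry a membrane-curving BAR domain, which helps to form the tubules that carry cargo away. In macrophages this system works beside the large endocytic and macropinocytic uptake of these cells, and CD206 itself is an uptake receptor that recycles through early endosomes.

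The libraries held between 16730846 and 18214283 reads in genes, so that 3 reads correspond to 0.165 to 0.179 CPM (counts scaled to the library total). Levels below are CPM after TMM scaling between libraries, and levels per length are these CPM per kilobase of annotated exon. Mrc1 was at 1456, 1790 and 1503 CPM in CD206+ cells, against 51.5, 118 and 111 CPM in CD206- cells, a fold of 16.9 in the means, as the sort would set. Csf1r averaged 2281 ± 614 CPM in CD206+ cells and 1597 ± 158 CPM in CD206- cells (SD, n = 3 each), and its edgeR adjusted p was 0.23. Marker lists also differed between the groups. Of 10 macrophage markers, 7 were called higher in CD206+ cells, with summed levels of 9855 to 13331 CPM in CD206+ libraries and 4530 to 5636 CPM in CD206- libraries, none of the 10 at 0. Of 8 blood progenitor markers, 6 were called lower in CD206+ cells, with sums of 28.2 to 55.3 CPM in CD206+ libraries, where Kit was at 0, and 682 to 945 CPM in CD206- libraries. Of 9 markers of granulocytes and their precursors, all 6 tested were called lower. The 9 summed to 17.3 to 69.6 CPM in CD206+ libraries, where Ctsg, S100a8, S100a9, Ms4a3 and Camp were at 0, and 1859 to 2848 CPM in CD206- libraries. Most of the CD206- sum was Mpo, at 1493 to 2275 CPM. Ctsg and Camp were also low in CD206- cells, with means of 0.04 and 3.77 CPM, and were not tested. Of 5 tested of 7 megakaryocyte markers, Pf4 was called higher and Gfi1b lower, with sums of 159 to 161 CPM in CD206+ libraries and 52.7 to 72.7 CPM in CD206- libraries. Nearly all of the CD206+ sum was Pf4, at 149 to 158 CPM. Ppbp also had a higher mean in CD206+ cells, while Itga2b, Gp9, Gp1bb, Gfi1b and Vwf had lower ones. EdgeR called none of the endothelial, mesenchymal or erythroid markers; at an unadjusted p under 0.05, 3 endothelial, 1 mesenchymal and 1 erythroid marker were lower, DESeq2 called 3, 1 and 0 lower, and limma-voom 0. The endothelial sum was 63.1 to 79.5 CPM in CD206+ libraries and 138 to 224 CPM in CD206- libraries, and the erythroid sum 2.38 to 4.68 CPM in CD206+ libraries and 2.95 to 4.22 CPM in CD206- libraries. The mesenchymal sum was 2.08 to 59.6 CPM in CD206+ libraries and 7.12 to 75.3 CPM in CD206- libraries, highest in litter 3 in both groups. Markers of blood progenitors and of granulocytes and their precursors were thus far lower in CD206+ libraries. The part of any of these lists in each difference below was not tested. In bulk RNA of sorted cells, fewer cells of a type and less RNA per cell cannot be told apart.

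Among the 32 members with enough reads, 8 were called higher in CD206+ cells and 0 lower, by edgeR's quasi-likelihood test over all 12668 tested genes with an adjusted p under 0.05. The 8 were Vps35, Vps26a, Snx2, Snx6, Snx3, Snx24, Snx8 and Snx30. Over all tested genes the same test called 2.97% higher and 1.9% lower. No tested member was lower even at an unadjusted p under 0.05, and neither DESeq2 nor limma-voom called 1 lower. The libraries of the groups did not overlap for 15 members, all of them higher in CD206+ cells, where 12.8% of all tested genes lay wholly above and 11.8% wholly below. Positive log2 fold changes were found for 27 members and negative ones for 5, with a median of 0.29 against -0.0043 over all tested genes; scaled by library totals alone, 24 were positive, since Vps26b, Snx19 and Snx25 turned negative, and the median was 0.21. Taken litter by litter, 18 members were higher in CD206+ cells in all 3 litters and 1, Snx10, was lower in all 3, beside 21.8% and 21.9% of all tested genes. The counts without overlap and by litter use TMM-scaled levels. TMM factors were 0.965 to 0.978 in CD206+ libraries and 1.01 to 1.05 in CD206- libraries. Relative to library totals, they raise CD206+ levels. The narrow gaps of Snx1, Snx4, Snx12 and Vps29 rest on this scaling. So do narrow differences of Snx4, Snx7 and Snx20 within single litters. The count of called members changed with the libraries left in: it was 7, 4 and 5 without CD206+ library 1, 2 or 3, and 5, 4 and 5 without CD206- library 1, 2 or 3. Without both libraries of litter 2 it was 0, against 5 without litter 1 and 4 without litter 3.

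**Figure D1:**
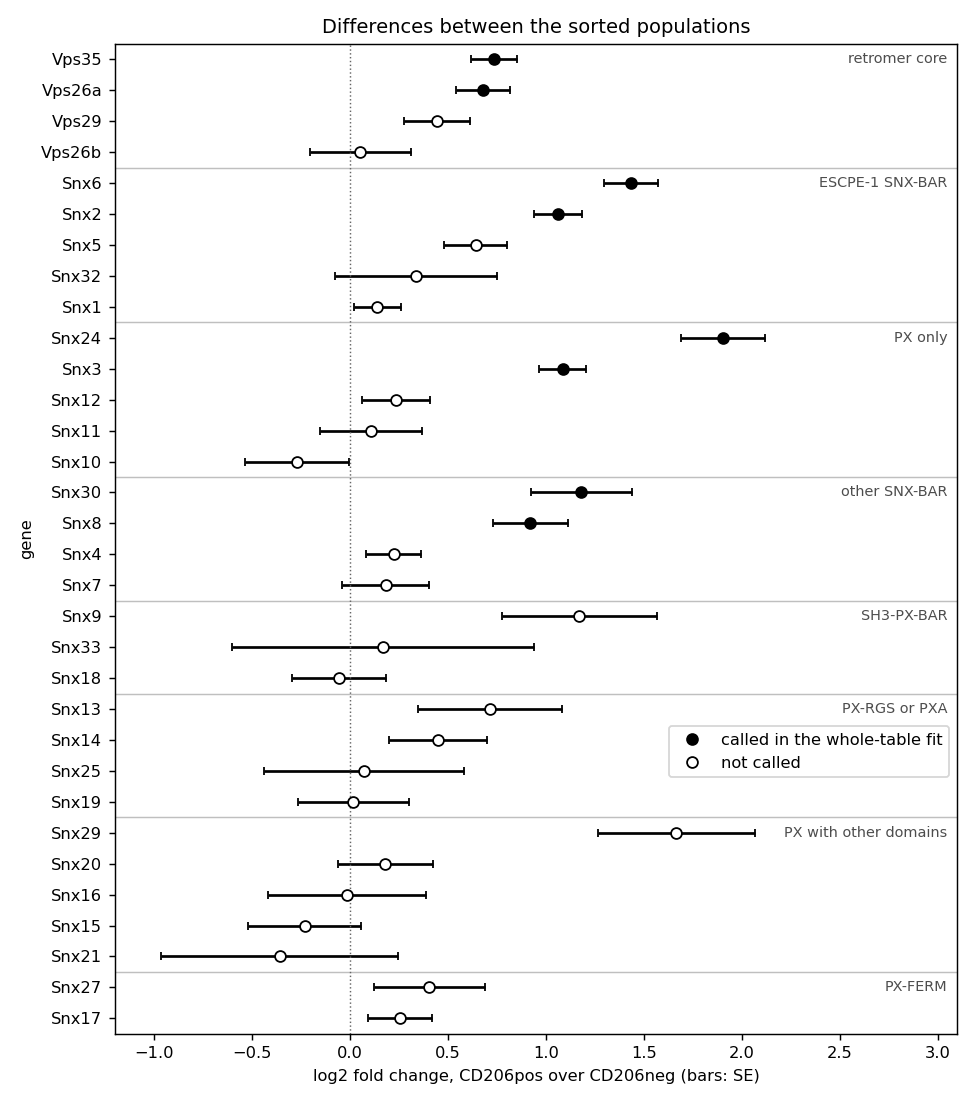
Log2 fold change of the 32 tested members, CD206+ over CD206- cells, with bars for the standard error and genes grouped by domain or complex. Filled points are the 8 members called in the fit over all genes: they lie in the retromer core, ESCPE-1, PX-only and other SNX-BAR groups, and no member of the 4 lower groups is filled.

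The retromer core was higher in CD206+ cells for 3 of its 4 genes without overlap between libraries, and 2 of these were called. Vps35 (ENSMUSG00000031696.9, chr8:85260392-85299802, minus strand), the scaffold subunit that binds cargo adaptors, was at 749, 786 and 777 CPM in CD206+ libraries, against 450, 494 and 446 CPM in CD206- libraries. All 3 CD206+ values lay above all 3 CD206- values, and the log2 fold change was 0.73 ± 0.12 (SE). Vps26a (ENSMUSG00000020078.16, chr10:62455235-62486805, minus strand), an arrestin-like cargo-binding subunit, was at 419, 399 and 498 CPM in CD206+ libraries, against 269, 259 and 294 CPM in CD206- libraries. Its log2 fold change was 0.68 ± 0.14, with litter 3 highest in both groups. Vps29 (ENSMUSG00000029462.18, chr5:122354369-122364984, plus strand), the subunit that binds regulators of RAB7, was at 363, 257 and 305 CPM in CD206+ libraries, against 234, 194 and 252 CPM in CD206- libraries. The groups did not overlap, but their nearest values, 257 and 252 CPM, almost met, and the log2 fold change of 0.44 ± 0.17 was not called. Vps26b (ENSMUSG00000031988.10, chr9:27007771-27030065, minus strand), the paralog that can replace VPS26A, was at 63.9, 46.3 and 49.4 CPM in CD206+ libraries, against 68.2, 48.2 and 37.6 CPM in CD206- libraries. Its groups overlapped and its log2 fold change was 0.05 ± 0.26. Summed per length over the 4 genes, the level was 300.5 ± 21.0 CPM per kilobase in CD206+ cells and 194.9 ± 7.13 CPM per kilobase in CD206- cells (SD, n = 3 each). The call of Vps35 was lost without CD206+ library 2 and without CD206- library 2, and that of Vps26a without any 1 library other than CD206+ library 1. Vps35 shares 1.92% of its exon bases with Orc6 and Vps29 shares 5.53% with Fam216a, in each case on the other strand.

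ESCPE-1 is a coat in which the SNX-BAR proteins SNX1 or SNX2 pair with SNX5 or SNX6. It carries receptors such as the cation-independent mannose 6-phosphate receptor back to the Golgi. The ESCPE-1 genes had the highest summed transcript level per length of any group in the family. Snx2 (ENSMUSG00000034484.7, chr18:53176365-53220860, plus strand) was at 2052, 2013 and 2013 CPM in CD206+ libraries, against 1072, 917 and 923 CPM in CD206- libraries. Its CD206+ libraries agreed within a coefficient of variation of 1.12%, the lowest of any tested member, and its log2 fold change was 1.06 ± 0.12, a fold of 2.09 in the means. Its partner Snx6 (ENSMUSG00000005656.9, chr12:54746349-54795703, minus strand) was at 940, 1108 and 1207 CPM in CD206+ libraries, against 420, 372 and 412 CPM in CD206- libraries. The CD206+ library of litter 1 was the lowest of its group and still lay far above every CD206- library, and the log2 fold change was 1.43 ± 0.14, a fold of 2.70. Both Snx2 and Snx6 were called. Snx1 (ENSMUSG00000032382.14, chr9:66088133-66126587, minus strand), the paralog of Snx2, was at 378, 348 and 369 CPM in CD206+ libraries, against 345, 316 and 333 CPM in CD206- libraries. Its values did not overlap between groups, but the nearest, 348 and 345 CPM, almost met. The log2 fold change was only 0.14 ± 0.12 and was not called, and it was 0.05 when scaled by library totals alone. Snx5 (ENSMUSG00000027423.15, chr2:144250123-144270906, minus strand), the paralog of Snx6, was at 779, 566 and 593 CPM in CD206+ libraries, against 446, 431 and 367 CPM in CD206- libraries. Its CD206+ library of litter 1 stood above the other two, its groups did not overlap, and its log2 fold change of 0.64 ± 0.16 was not called; with litter as a block, under a stricter filter on low counts, by DESeq2 and by limma-voom it was. Snx32 (ENSMUSG00000056185.4, chr19:5495278-5510489, minus strand), a relative of Snx5 and Snx6, was at 5.56, 8.64 and 8.95 CPM in CD206+ libraries, against 5.87, 5.38 and 7.09 CPM in CD206- libraries. These groups overlapped, and the log2 fold change was 0.34 ± 0.41. The 5 genes summed to 1612 ± 22.4 CPM per kilobase in CD206+ cells and 795 ± 58.1 CPM per kilobase in CD206- cells (SD, n = 3 each).

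**Figure D2:**
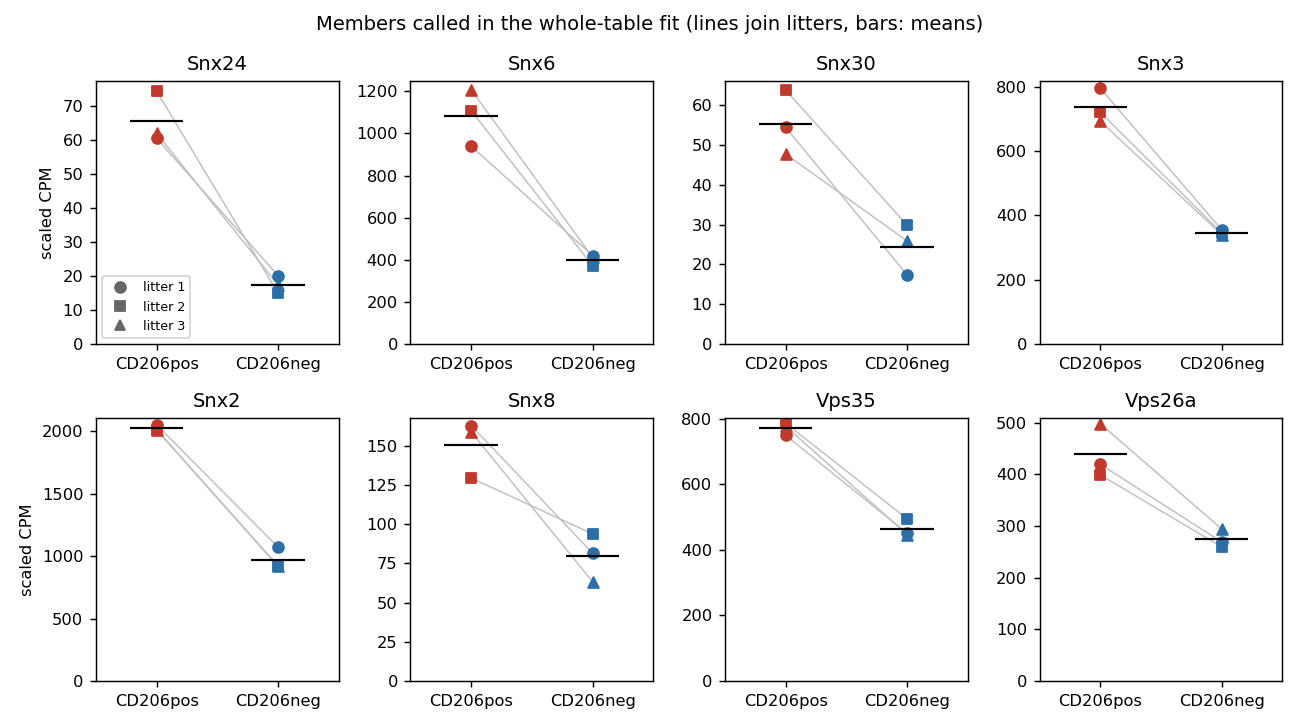
Scaled CPM of the 8 called members in each library, with CD206+ cells on the left and CD206- cells on the right of each panel; lines join the libraries of 1 litter and bars are the group means. Every line runs downward from CD206+ to CD206- cells, with the CD206+ points of Snx2 between 2013 and 2052 CPM and its CD206- points between 917 and 1072 CPM.

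Of the sorting nexins, 6 consist of little more than the PX domain, and 2 of the 5 tested ones were called. Snx3 (ENSMUSG00000019804.12, chr10:42502030-42535381, plus strand), which brings retromer to endosomal membranes and with it retrieves the Wnt carrier WLS, was at 795, 721 and 693 CPM in CD206+ libraries, against 355, 345 and 340 CPM in CD206- libraries. Its CD206- libraries had a coefficient of variation of 2.15%, the lowest of any tested member in that group, and its log2 fold change was 1.08 ± 0.12, a fold of 2.12. Snx24 (ENSMUSG00000024535.15, chr18:53245662-53390823, plus strand) had the largest log2 fold change of the family, 1.90 ± 0.22. It was at 60.6, 74.4 and 62.0 CPM in CD206+ libraries, against 20.2, 15.0 and 17.4 CPM in CD206- libraries, on 260 to 1301 reads per library. The groups lay far apart, with litter 2 at both the highest CD206+ and the lowest CD206- value. Snx24 and Snx2, both called, are neighbours on the plus strand of chromosome 18 with 24801 bases and no annotated gene between them. Snx12, the closest paralog of Snx3, averaged 74.9 ± 1.93 CPM in CD206+ cells and 63.6 ± 8.93 CPM in CD206- cells (SD, n = 3 each), without overlap but not called. Its nearest values, 72.7 CPM in CD206+ and 71.9 CPM in CD206- libraries, almost met. Snx11 overlapped between groups, at 29.6 ± 5.40 CPM in CD206+ cells and 27.5 ± 6.04 CPM in CD206- cells (SD, n = 3 each). Snx10, whose loss in mice and people impairs osteoclasts, was at 27.5 ± 6.43 CPM in CD206+ cells and 33.3 ± 6.65 CPM in CD206- cells (SD, n = 3 each), with a log2 fold change of -0.27 ± 0.27. Snx22 had 14 reads in the CD206- library of litter 1 and 0 in the other 5, too few to be tested, and 28.5% of its exon bases are shared with Ppib on the other strand. It lies 18413 bases from Snx1 on chromosome 9.

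The SNX-BAR genes outside ESCPE-1 contributed the last 2 called members. Snx8 (ENSMUSG00000029560.12, chr5:140340299-140389262, minus strand), which acts in transport from endosomes to the Golgi, was at 163, 130 and 159 CPM in CD206+ libraries, against 81.6, 93.8 and 63.3 CPM in CD206- libraries. Litter 2 held both the lowest CD206+ and the highest CD206- value, and the log2 fold change was 0.92 ± 0.19. Snx30 (ENSMUSG00000028385.14, chr4:59805840-59904737, plus strand), a partner of SNX4 in autophagy and recycling, was at 54.3, 63.7 and 47.6 CPM in CD206+ libraries, against 17.3, 29.8 and 25.9 CPM in CD206- libraries. The groups did not overlap and the log2 fold change was 1.18 ± 0.26. Snx4 itself averaged 183 ± 16.7 CPM in CD206+ cells and 157 ± 9.25 CPM in CD206- cells, and Snx7, the other SNX4 partner, averaged 34.4 ± 3.91 CPM in CD206+ cells and 30.3 ± 4.28 CPM in CD206- cells (SD, n = 3 each). Neither was called, although both were higher in CD206+ cells in all 3 litters after TMM scaling. In litter 1 the log2 ratio was only 0.06 for Snx4 and 0.04 for Snx7, and these small differences rest on that scaling. The calls of Snx8 and Snx30 were lost when any 1 of the 6 libraries was left out, while those of Snx2, Snx3, Snx6 and Snx24 were kept without any 1 library and lost only without both libraries of litter 2.

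In the remaining groups edgeR called no member; Snx9 and Snx29 alone passed an unadjusted p under 0.05, DESeq2 called these 2 and limma-voom 0. Among the SH3-PX-BAR genes, whose products act with dynamin in clathrin-mediated uptake and macropinocytosis, Snx9 (ENSMUSG00000002365.9, chr17:5841328-5931033, plus strand) was at 36.1, 70.8 and 39.9 CPM in CD206+ libraries, against 33.4, 13.3 and 18.5 CPM in CD206- libraries. The groups just failed to overlap and litter 2 differed most, so that the log2 fold change of 1.17 ± 0.39 had a wide error. Snx18 and Snx33, its relatives, overlapped between groups with log2 fold changes of -0.06 ± 0.24 and 0.17 ± 0.77. Snx29 (ENSMUSG00000071669.14, chr16:11322908-11755472, plus strand), a RUN domain protein, was at 9.53, 21.5 and 19.002 CPM in CD206+ libraries, against 5.00, 4.68 and 6.07 CPM in CD206- libraries, on 81 to 376 reads per library. It did not overlap, with the CD206+ library of litter 1 nearest to the CD206- values, and its log2 fold change of 1.66 ± 0.40 was not called; it was called under a stricter filter, by DESeq2 and without CD206+ library 1. The other genes with a PX domain beside other domains (Snx15, Snx16, Snx20 and Snx21) all overlapped, with log2 fold changes between -0.36 and 0.18. Snx20, whose product binds PSGL-1 in endosomes of leukocytes, averaged 48.8 ± 7.67 CPM in CD206+ cells and 43.1 ± 11.3 CPM in CD206- cells (SD, n = 3 each). The 4 genes with a PXA domain, some with an RGS domain too (Snx13, Snx14, Snx19 and Snx25), also overlapped, between 0.02 and 0.72 on the log2 scale.

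The PX-FERM genes encode cargo adaptors. Snx17, the adaptor that links integrins and LRP1 to the Commander complex, averaged 295 ± 56.2 CPM in CD206+ cells and 247 ± 16.8 CPM in CD206- cells (SD, n = 3 each). Its log2 fold change was 0.25 ± 0.16, and 11.9% of its exon bases are shared with other genes on the other strand. Snx27, whose PDZ domain holds receptors for retromer-dependent recycling, averaged 54.2 ± 19.7 CPM in CD206+ cells and 41.0 ± 6.39 CPM in CD206- cells, with a log2 fold change of 0.40 ± 0.28. Both overlapped between groups. Snx31 had 22 reads in the CD206- library of litter 3 and 0 in the other 5, and was not tested.

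**Figure D3:**
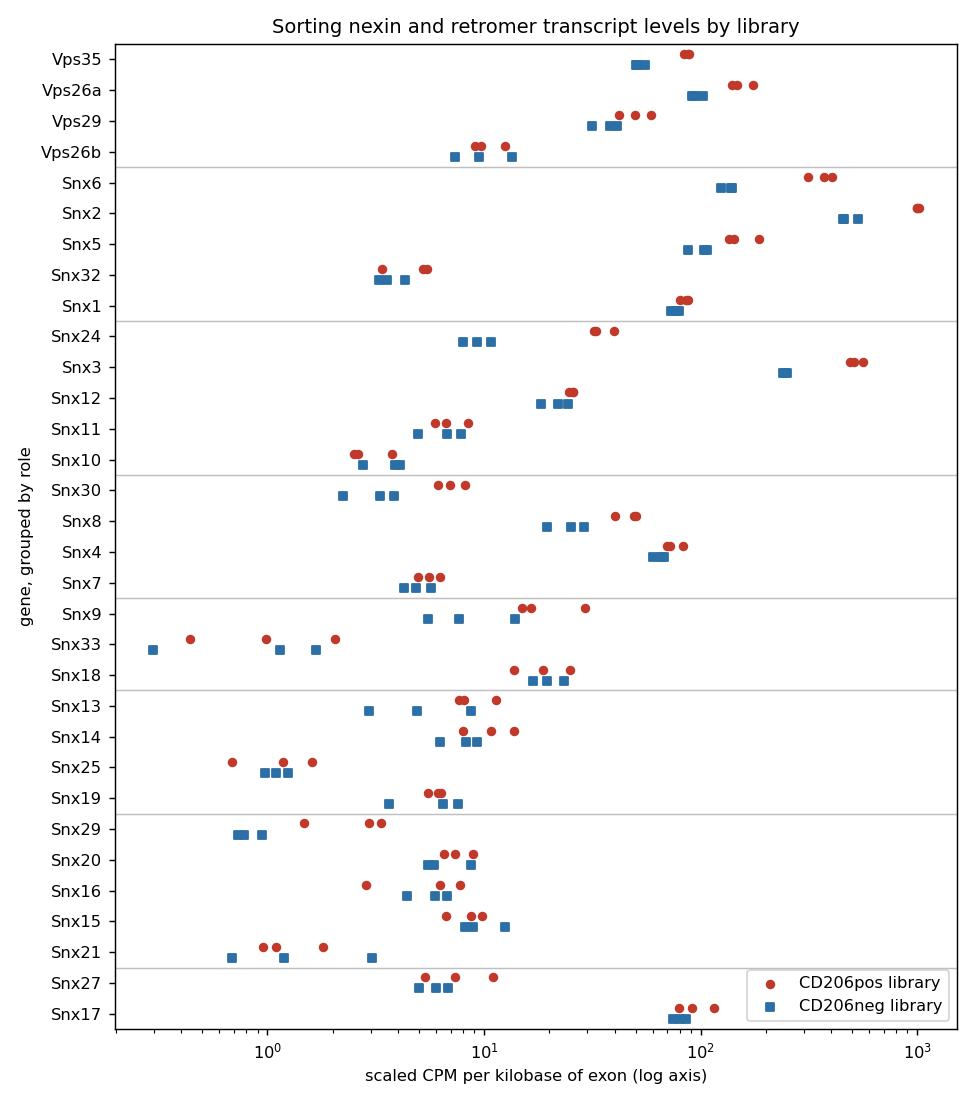
Scaled CPM per kilobase of annotated exon of the 32 tested members in each of the 6 libraries, on a log axis, grouped by domain or complex as in the plot of fold changes. Snx2, Snx3 and Snx6 lie furthest right in both groups, and the CD206+ points of the 8 called members lie apart from their CD206- points.

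Per length, 5 genes led both groups in the same order: Snx2, Snx3, Snx6, Snx5 and Vps26a. This order and the shares below depend on annotated exon length, which is 1413 bases for Snx3 and 8899 for Vps35. By mean CPM, Vps35 (770 in CD206+ and 464 in CD206- cells) stood above Snx3 (736 in CD206+ and 347 in CD206- cells). Snx2 averaged 1007 ± 11.2 CPM per kilobase in CD206+ cells and 482 ± 43.6 CPM per kilobase in CD206- cells (SD, n = 3 each), which was 35.5% of the summed level of the family in CD206+ cells and 31.4% in CD206- cells. Snx3 followed at 521 ± 37.3 CPM per kilobase in CD206+ cells and 245 ± 5.27 CPM per kilobase in CD206- cells, and Snx6 at 362 ± 45.0 and 134 ± 8.63 CPM per kilobase in CD206+ and CD206- cells. Snx5 (155 ± 27.8 CPM per kilobase) and Vps26a (153 ± 18.3 CPM per kilobase) did not differ beyond their spread in CD206+ cells, nor did they in CD206- cells (99.2 ± 10.05 and 95.9 ± 6.26 CPM per kilobase). All 34 members summed to 2834 ± 40.4 CPM per kilobase in CD206+ cells and 1535 ± 65.1 CPM per kilobase in CD206- cells. At the low end of the tested members, Snx21, Snx25 and Snx33 stood under 2 CPM per kilobase in both group means. Between libraries, the coefficient of variation of the tested members had a median of 17.8% in CD206+ cells, where Snx33 was highest at 70.8%, and of 15.1% in CD206- cells, where Snx21 was highest at 75.9%.

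Ratios within a library compare paralogs without scaling between libraries, and they were taken per kilobase of exon. Snx1 relative to Snx2 was 0.0853, 0.0803 and 0.0851 in CD206+ libraries, against 0.1493, 0.1598 and 0.1674 in CD206- libraries. Snx2 thus exceeded its paralog in every library, by more in each CD206+ library than in any CD206- library. Snx5 relative to Snx6 was 0.595, 0.367 and 0.352 in CD206+ libraries, against 0.761, 0.831 and 0.638 in CD206- libraries, with litter 1 highest among the CD206+ values and no overlap. Snx3 relative to Snx12 was 21.95, 19.8 and 19.9 in CD206+ libraries, against 13.7, 10.03 and 11.0 in CD206- libraries. Vps26a relative to Vps26b was 11.7, 15.3 and 17.9 in CD206+ libraries, against 7.02, 9.61 and 14.0 in CD206- libraries. Here the groups overlapped, although in each litter the CD206+ value was higher. The ratios use the same reads as the fold changes and are not separate evidence.

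**Figure D4:**
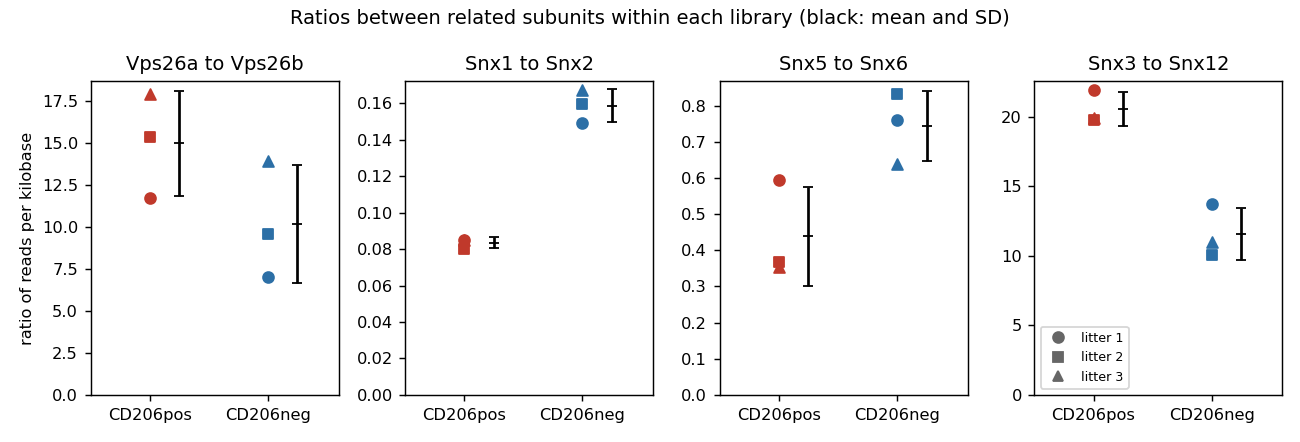
Ratio of reads per kilobase of exon between paralogous genes in each library, CD206+ cells left and CD206- cells right in each panel, with the mean and SD of 3 libraries beside the points. Snx1 to Snx2 and Snx5 to Snx6 lie lower in CD206+ libraries and Snx3 to Snx12 lies higher, each without overlap, while the Vps26a to Vps26b ratios overlap.

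Promoter sequence is a feature that the choice by name did not use. Windows from 250 bases before to 50 bases after an annotated start came from RefSeq on GRCm38.p6 and were found for 24 members, 5 of them called (Vps26a, Snx3, Snx6, Snx8 and Snx30). The E-box CACGTG, which reads the same on both strands and is bound by basic helix-loop-helix factors, stood in the windows of 4 of these 24 members (16.7%) and in those of 8.09% of all 27025 genes. Searched on both strands, TCACGTG, a longer form that contains this E-box and is the core of the element bound by the lysosomal regulator TFEB, stood in 1 member's windows (Vps26a) and in those of 4.29% of all genes. The PU.1-type sequence GAGGAAGT was found in 1 member (Snx8), against 3.69% of genes, and the AP-1 sequence TGANTCA in 2 (Snx10 and Snx29), against 8.97%. Vps26a held the E-box at 3 positions, 2 of them with annotated exon bases in the stretch around them and not shown. For each of the 4 genes, the stretch with the E-box outside annotated exons is shown, because 2 of them belong to called members and Snx5 was higher without a call, whereas Snx18 overlapped between groups. These stretches lie at chr10:62486952-62487017 for Vps26a, chr5:140389373-140389438 for Snx8, chr2:144270587-144270652 for Snx5 and chr13:113618715-113618780 for Snx18, all read on the minus strand with the E-box in capitals.
Vps26a: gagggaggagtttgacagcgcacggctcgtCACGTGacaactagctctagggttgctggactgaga
Snx8: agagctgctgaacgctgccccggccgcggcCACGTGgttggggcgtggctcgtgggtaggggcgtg
Snx5: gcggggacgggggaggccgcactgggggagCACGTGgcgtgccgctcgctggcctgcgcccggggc
Snx18: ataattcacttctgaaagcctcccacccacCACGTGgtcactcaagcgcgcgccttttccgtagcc
The first base of the printed E-box lies 182 bases before the RefSeq start in Vps26a, 100 in Snx8, 50 in Snx5 and 186 in Snx18. The Snx5 stretch lies inside the span of the counted gene (chr2:144250123-144270906), whereas those of Vps26a, Snx8 and Snx18 lie outside theirs. A match is a run of letters, and no binding was measured.

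Genes that work with retromer and the sorting nexins were taken from 7 lists, of which 83 genes were tested, 7 called higher and 2 called lower in CD206+ cells. Over all 12668 tested genes, 2.97% were called higher and 1.9% lower. Because the lists were chosen with earlier results of these data known, their calls and p-values are a description and not separate evidence. The actin-organising WASH complex, which VPS35 brings to endosomes, was listed with capping protein: 1 of 8 genes was called higher, 0 lower and 7 were not called, with a median log2 fold change of 0.42. None of the 8 was lower at an unadjusted p under 0.05, nor called lower by DESeq2 or limma-voom. The called gene was Washc5, the strumpellin subunit, at 196, 220 and 259 CPM in CD206+ libraries, against 107, 111 and 113 CPM in CD206- libraries. Its log2 fold change was 1.03 ± 0.15 (edgeR adjusted p = 0.0071), and the call was kept in 5 of 6 fits that left out 1 library, with an adjusted p of 0.054 without CD206- library 2.

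Commander, the complex of retriever and the CCC proteins that recycles SNX17 cargo, had 3 of 14 tested genes called higher and 0 lower, with a median log2 fold change of 0.53. None of its genes was lower at an unadjusted p under 0.05 or by the other tools. Commd10 averaged 135 ± 11.5 CPM in CD206+ cells and 67.6 ± 9.94 CPM in CD206- cells (edgeR adjusted p = 0.014). Vps26c, the retriever counterpart of Vps26a, averaged 279 ± 20.5 CPM in CD206+ cells and 159 ± 18.3 CPM in CD206- cells (edgeR adjusted p = 0.016). Commd3 averaged 167 ± 9.68 CPM in CD206+ cells and 107 ± 11.8 CPM in CD206- cells (edgeR adjusted p = 0.047, and 0.056 with litter as a block). The calls of Commd10 and Vps26c were each kept in 2 of 6 fits that left out 1 library, and that of Commd3 in 0 of 6, where its adjusted p reached 0.19. Commd3 also lost its call under RLE, upper-quartile and library-total scaling and under a looser filter on low counts. Ccdc22, another CCC gene, had 0 reads in all 6 libraries, and whether its transcripts were absent or not counted was not tested.

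Among the 16 listed genes for cargo proteins, 15 were tested, 2 called higher, 1 called lower and 12 not called. The median log2 fold change was 0.35. Wls, the Wnt carrier retrieved by SNX3 and retromer, was at 141, 158 and 200 CPM in CD206+ libraries, against 87.9, 79.6 and 81.7 CPM in CD206- libraries. It rose, with a log2 fold change of 1.00 ± 0.17 (edgeR adjusted p = 0.014). Sorl1, a VPS10-domain sorting receptor, was at 4.64, 16.5 and 11.0 CPM in CD206+ libraries, against 31.9, 80.8 and 107 CPM in CD206- libraries. It fell, with a log2 fold change of -2.77 ± 0.55 (edgeR adjusted p = 0.026). The calls of Wls and Sorl1 were each kept in 1 of 6 fits that left out 1 library, with adjusted p up to 0.09 for Wls and 0.12 for Sorl1. Selplg, which encodes the SNX20 ligand PSGL-1, had a log2 fold change of -1.11 ± 0.34 and was not called (edgeR adjusted p = 0.12), but was called lower with litter as a block.

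Of 6 tested retromer regulators, 1 was called higher and 0 lower, with a median log2 fold change of 0.45; 1 gene was lower at an unadjusted p under 0.05 and 0 by DESeq2 or limma-voom. The called gene was Ehd1, an ATPase of recycling endosomes, at 351, 296 and 243 CPM in CD206+ libraries, against 135, 141 and 65.7 CPM in CD206- libraries (log2 fold change 1.38 ± 0.29, edgeR adjusted p = 0.032). Its call was kept in 1 of 6 fits without 1 library, with an adjusted p of up to 0.13. Of 16 tested genes for other PX domain proteins, 0 were called higher and 1 lower. Unadjusted p under 0.05 was reached by 3 higher genes, DESeq2 called 3 higher, and limma-voom called 0. The gene that fell was Pik3c2b, a class II phosphoinositide 3-kinase, at 0.18, 0.57 and 0.58 CPM in CD206+ libraries, against 2.18, 8.499 and 8.55 CPM in CD206- libraries (edgeR adjusted p = 0.042, up to 0.19 in fits without 1 library, 5 of 6 of which lost the call, and not called by limma-voom).

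The phosphoinositide enzymes of endosomes, which make and remove the lipid that PX domains bind, were listed with non-enzyme partners such as Becn1 and Uvrag. Of these 14 genes, 0 were called in either direction by edgeR, DESeq2 or limma-voom. At an unadjusted p under 0.05, 1 was higher and 0 lower. The most abundant by CPM, Becn1, averaged 173 ± 1.04 CPM in CD206+ cells and 188 ± 26.96 CPM in CD206- cells, and Uvrag, next in the mean of both groups, averaged 94.0 ± 13.8 CPM in CD206+ cells and 103 ± 18.8 CPM in CD206- cells (SD, n = 3 each). The HOPS and CORVET tethers, which act when endosomes fuse with each other or with lysosomes, had 0 of 10 genes called in either direction by edgeR. Here 4 were higher at an unadjusted p under 0.05, DESeq2 called 2 higher and limma-voom 1, while 0 were lower by any of these. Vps33a averaged 205 ± 37.2 CPM in CD206+ cells and 140 ± 11.7 CPM in CD206- cells, and Vps41 averaged 141 ± 6.79 CPM in CD206+ cells and 123 ± 20.02 CPM in CD206- cells (SD, n = 3 each). Median log2 fold changes were 0.18 for the enzymes with their partners, 0.34 for the other PX genes and 0.31 for the tethers. All 7 medians were above that of all tested genes, and no test compared any list with other genes.

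**Figure D5:**
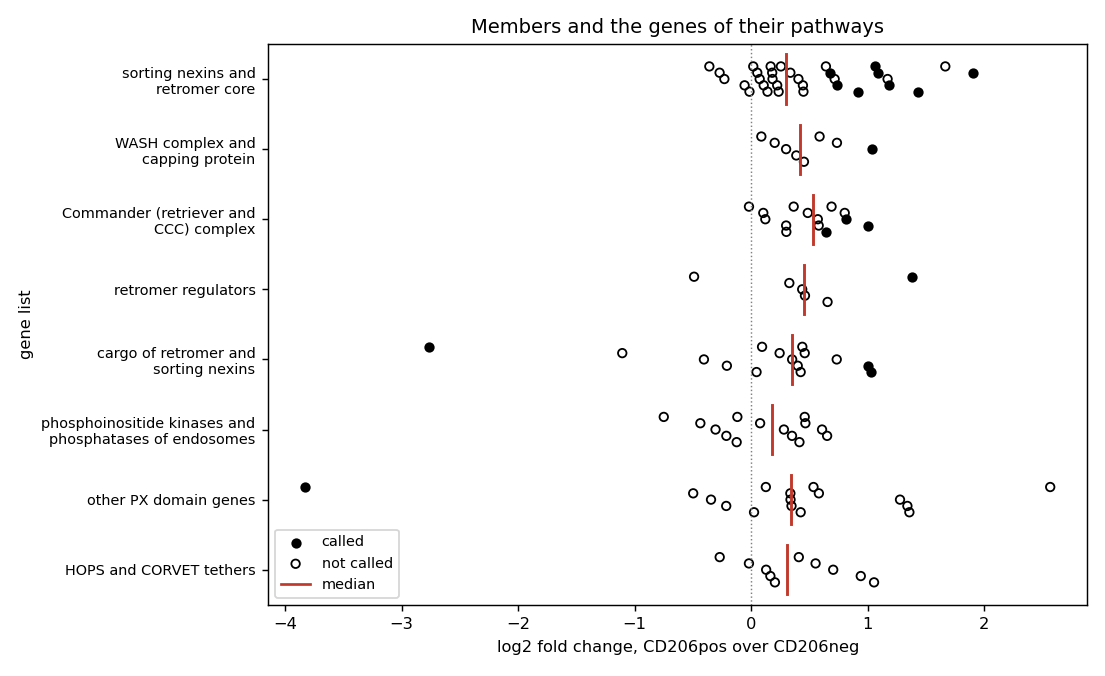
Log2 fold change, CD206+ over CD206- cells, of each tested member (top row) and of each tested gene in the 7 lists of partner genes, with filled points for called genes and a red line for the median of the row. The medians lie between 0.18 and 0.53; the called genes to the left of 0 are Sorl1 at -2.77 and Pik3c2b at -3.83.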

How the data were processed

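The deposited counts are whole-number reads per gene, 1 table per library, made by the authors with featureCounts 1.5.2, per the file headers. No option for strand, multi-mapping reads or overlapping genes is given there, so the strand of a read is unknown, and reads on overlapping exons are not counted by the program's defaults; 11 members share exon bases with another gene, 4 of them over 10%. The submitters' processing notes name FastQC, STAR 2.3, Subread, mm10 and GRCm38.p5. Coordinates are those of the deposited tables (GRCm38, 1-based). Symbols matched 51633 of 51912 identifiers; the 279 others held 0.00996% to 0.014% of reads.

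From the counts, edgeR 4.0.16 (R 4.3.3; filterByExpr, TMM scaling, quasi-likelihood F test, Benjamini-Hochberg adjustment over 12668 genes) compared 3 CD206+ with 3 CD206- libraries without a litter block, with a common biological coefficient of variation of 0.438. It called 617 genes. Standard errors were taken as |log2 fold change| over the root of its F statistic. P-values measure the spread between these 3 litters, and floors of 3 reads cover counting error only. Members and gene lists were chosen with earlier results of these data known. Full values are given for the retromer core, ESCPE-1, called members and members with an absolute log2 fold change of at least 1; of the partner lists, called genes are named, except 1 that is not reported here. The design names 3 litters and the titles number the AGM. Deviations of same-numbered libraries from their group means correlated at 0.089, 0.0394 and 0.18. Alternatives were the litter block, other scalings and filters, DESeq2 1.42.0, limma-voom (limma 3.58.1) and leaving out libraries or litters.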

Additional observations from a re-analysis of the deposited data

How the results depend on the processing

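With litter as a replicate block, 9 members were called higher, Snx5 in addition to the 8, and 8 partner genes were called higher and 3 lower, Commd3 not among them. Scaled by library totals alone, 6 members were called higher, Vps26a and Snx30 losing their calls; the stricter filter gave 10, DESeq2 11 and limma-voom 9. Called members numbered 4 to 7 without 1 library. Without both libraries of litter 1, 2 or 3, members called higher were 5, 0 and 4, partner genes called higher 4, 0 and 1, and partner genes called lower 1, 0 and 0. Partner genes called higher were 7 in the fit reported and 0 to 7 without 1 library, and DESeq2 called 17. Partner genes called lower were 2 in the fit reported, 0 to 2 without 1 library, 1 under the stricter filter, 1 by limma-voom and 4 by DESeq2. The fits without a library or litter rest on fewer samples; the cause of the other shifts was not tested. No called log2 fold change changed sign, and 0 members were called lower in any of the 17 alternatives. The paralog ratios with coding lengths were not run. Scaling by library totals gave all tested genes a median log2 fold change of -0.0932. The widest standard errors of log2 fold changes were those of Snx33 (0.77), Snx21 (0.60) and Snx25 (0.51), all on few reads.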
